A study of Homo sapiens with 30 samples.

Results

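The stress bZIP factors are transcription factors that bind DNA through a basic region and pair through a leucine zipper. The group described here is the listed genes ATF3, ATF4, ATF5, DDIT3, CEBPB, CEBPD, CEBPG and NFIL3, taken at the brightest probe set that carries only that symbol in the platform's probe annotation. Of these 8 genes, 7 had such a probe set among 12690 genes on the array, and 5 (ATF3, ATF4, ATF5, CEBPB and CEBPD) lay in the brighter 60% of genes, the 7614 that were tested. CEBPG and NFIL3 were dimmer and are given by their intensities and by a fit that kept all 12690 genes. The shares of genes called that stand below are those of the 7614 tested genes and not of that fit. DDIT3, also called CHOP, had no single-symbol probe set in the annotation used and is not analysed here. The members were listed by name and not by their values, though with earlier results of these data known.

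When unfolded protein, missing amino acids or lack of oxygen activates a kinase that phosphorylates eIF2alpha, general translation falls while the ATF4 mRNA is translated more, a control that transcript levels do not show. ATF4 then activates genes of amino acid supply and stress, among them ATF3, ATF5, DDIT3, TRIB3 and ASNS, often as a dimer with a C/EBP protein. ATF3 is an immediate stress gene and mostly a repressor, CEBPB and CEBPD are known for acute phase and inflammatory genes, CEBPG is a C/EBP partner that lacks an activation domain, and NFIL3 (E4BP4) is a bZIP repressor best known in immune cells and the circadian clock.

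Expression was measured in 3 human carcinoma lines on 30 arrays, 1 array per RNA sample. The renal carcinoma line RCC4, VHL-null or carrying reintroduced wild-type VHL (VHL-restored here), was sampled on 20 arrays: at 0, 1, 2, 4, 6 and 18 h in an anoxic incubator, and 1 h and 4 h into reoxygenation that followed 18 h. H1299 non-small cell lung cancer cells took 4 arrays at 24 h and 0 h, p53-null or with p53 reintroduced, labelled p53-wildtype, and HCT116 colon carcinoma cells took 6 arrays at 0, 12 and 24 h, p53-null or p53-wildtype. Each RCC4 genotype has 2 independent replicates at 18 h and at 0 h, and all remaining groups have 1 array, so the other tests below treat genotypes, times or lines as replicates, and the labels do not say whether a genotype is 1 clone. VHL is part of the ubiquitin ligase that removes HIF proteins in oxygen.

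Some features of the arrays bear on each result. By 5 control entries that are blank on some arrays, 18 arrays form set 1 and 12 form set 2. The first RCC4 replicate, the 2 h and 6 h arrays and both p53 lines fall in set 1, and the second RCC4 replicate with the 1 h, 4 h and reoxygenation arrays in set 2. Median intensities were 145 to 174 in set 1 and 201 to 222 in set 2, and every change below is relative to the array's own median gene. The set moved ATF3 strongly: set 2 minus set 1 was 0.67 to 1.70 on the log2 scale over the 4 replicated RCC4 groups, above at least 94.6% of the tested genes in each. Further, the arrays labelled H1299 p53-wildtype go against their labels. Of 8 hypoxia genes chosen for this check after their values were seen (ADM, BNIP3, ENO2, HILPDA, NDRG1, P4HA1, PDK1 and PFKFB4), 8 were higher at 24 h in H1299 p53-null cells and in both HCT116 genotypes, whereas 0 of 8 were higher on the array labelled H1299 p53-wildtype 24 h than on the one labelled 0 h, with a median log2 change of -1.32. Of 4 renal marker genes, 1 to 3 were above the array median in RCC4 arrays and 0 to 1 in the other lines. The 7 colon markers showed 2 above the median on every HCT116 array and on every H1299 array, and the 5 lung markers showed 3 in every line, so these lists did not set colon and lung cells apart.

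Promoter windows of 300 bases, each around a RefSeq start site (GRCh38.p14), are shown for ATF3, CEBPB and NFIL3, 3 of the 4 members that were high at 1 h and 4 h of hypoxia in RCC4 (the other is CEBPG), and for ATF4, the only one of the 6 members searched with a motif match. They lie at chr1:212565157-212565456 (plus strand) for ATF3, chr20:50190580-50190879 (plus strand) for CEBPB, chr9:91424577-91424876 (minus strand) for NFIL3 and chr22:39520309-39520608 (plus strand) for ATF4. Capitals mark the match.
ATF3: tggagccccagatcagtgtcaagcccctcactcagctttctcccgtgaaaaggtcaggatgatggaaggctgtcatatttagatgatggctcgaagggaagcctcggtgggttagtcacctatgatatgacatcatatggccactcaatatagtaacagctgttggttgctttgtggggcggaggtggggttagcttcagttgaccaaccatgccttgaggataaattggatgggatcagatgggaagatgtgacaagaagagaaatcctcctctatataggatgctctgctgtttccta
CEBPB: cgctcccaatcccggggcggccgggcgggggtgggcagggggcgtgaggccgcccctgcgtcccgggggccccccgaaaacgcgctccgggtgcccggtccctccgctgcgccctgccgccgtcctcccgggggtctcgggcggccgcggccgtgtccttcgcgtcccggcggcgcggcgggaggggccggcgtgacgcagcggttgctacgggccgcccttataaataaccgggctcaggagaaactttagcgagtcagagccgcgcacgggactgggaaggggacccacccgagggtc
NFIL3: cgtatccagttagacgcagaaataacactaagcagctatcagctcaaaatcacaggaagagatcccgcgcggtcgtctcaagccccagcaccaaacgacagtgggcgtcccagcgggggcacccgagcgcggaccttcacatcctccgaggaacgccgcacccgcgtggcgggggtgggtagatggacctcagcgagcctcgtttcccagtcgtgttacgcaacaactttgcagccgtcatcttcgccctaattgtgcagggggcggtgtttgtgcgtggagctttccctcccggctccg
ATF4: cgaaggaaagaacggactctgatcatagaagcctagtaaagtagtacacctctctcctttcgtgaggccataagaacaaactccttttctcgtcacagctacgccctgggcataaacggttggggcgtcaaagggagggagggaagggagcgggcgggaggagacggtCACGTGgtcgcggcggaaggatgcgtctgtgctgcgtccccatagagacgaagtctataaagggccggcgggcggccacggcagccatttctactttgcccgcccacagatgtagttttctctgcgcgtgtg

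Both strands of the listed windows of ATF3, ATF4, ATF5, CEBPB, CEBPG and NFIL3 were searched for 5 motifs. These were the composite ATF4 and C/EBP element TGATGNAAT, the cyclic AMP element TGACGTCA, the endoplasmic reticulum stress element (CCAAT and CCACG 9 bases apart), the hypoxia element core ACGTG and the NFIL3 core TTATGNAA. In 35116 promoter windows of the same length they occur in 0.991%, 1.85%, 0.0769%, 21.4% and 3.3%. ACGTG on both strands of ATF4 was the only match, overlapping as CACGTG with its first base 82 before the start. The other windows lack these exact letters, which says nothing about binding elsewhere.

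At 18 h of hypoxia ATF3 was higher than at 0 h in each replicate of both RCC4 genotypes. In VHL-null cells the ATF3 intensity was 168 and 891 at 18 h against 64 and 292 at 0 h, replicates 1 and 2 in that order. In VHL-restored cells it was 234 and 548 at 18 h against 66 and 190 at 0 h. In VHL-null cells the groups overlap when the replicates are mixed, and in VHL-restored cells both 18 h values lay above both 0 h values. Within each replicate the 18 h array was the higher.

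**Figure D1:**
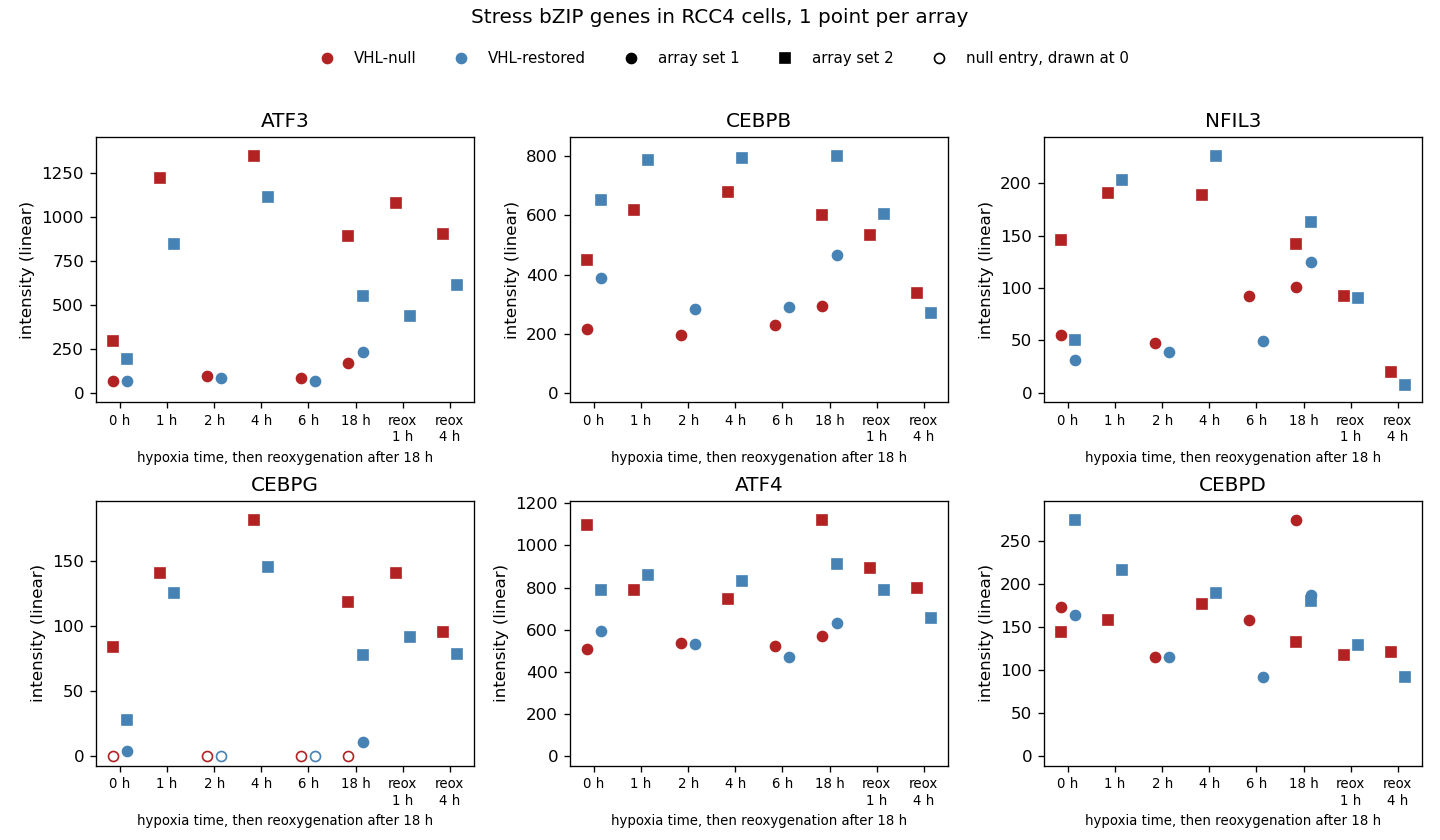
Linear intensity of 6 members on each of the 20 RCC4 arrays, by time in hypoxia, with the reoxygenation times last. Each point is 1 array, red for VHL-null and blue for VHL-restored, circles for array set 1 and squares for array set 2, and open symbols are null entries drawn at 0. ATF3 reached 1347 at 4 h in set 2 and stayed between 64 and 234 on every set 1 array.

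The ATF3 change at 18 h was 1.42 on the log2 scale in VHL-null cells (SE 0.61, adjusted p = 1), with 0% of genes called and 51 at an unadjusted p under 0.05. In VHL-restored cells it was 1.58 (SE 0.61, adjusted p = 1), where 0.0394% of genes were called. With the replicate number as a block the same ATF3 changes passed, with adjusted p = 0.000392 in VHL-null cells (0.486% of genes called) and 1.5e-05 in VHL-restored cells (6.58% called). The block equals the array set in these 8 arrays. Within set 1 the ATF3 log2 change was 1.17 in VHL-null and 1.64 in VHL-restored cells, and within set 2 it was 1.67 and 1.51. The VHL by hypoxia interaction of ATF3 was -0.16 (SE 0.86, adjusted p = 1), and none of the 5 tested members passed that test in either fit. Without the block 0% of genes were called for the interaction and 45 had an unadjusted p under 0.05, and with it 0.565% were called.

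CEBPB, the C/EBP factor of acute phase and stress genes, also had the higher value at 18 h in each replicate. Its intensity was 292 and 601 at 18 h against 215 and 450 at 0 h in VHL-null cells, and 467 and 801 against 389 and 653 in VHL-restored cells. The log2 changes of CEBPB, 0.45 in VHL-null and 0.32 in VHL-restored cells, did not pass the test without the block (adjusted p = 1 in both) or with it (adjusted p = 0.0581 and 0.0651).

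ATF4, the translationally controlled factor itself, differed little. It had 569 and 1122 at 18 h against 509 and 1098 at 0 h in VHL-null cells, and 630 and 914 against 594 and 787 in VHL-restored cells. Its log2 changes of 0.13 and 0.19 (SE 0.20 each) did not pass the test in either genotype. ATF5 and CEBPD had log2 changes between -0.15 and 0.30 and did not pass it either.

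NFIL3, the dimmer bZIP repressor, was 125 and 163 at 18 h against 31 and 50 at 0 h in VHL-restored cells, groups that do not overlap, and 101 and 142 against 55 and 146 in VHL-null cells, which do. In the fit of all genes the NFIL3 change was 1.56 in VHL-restored cells (SE 0.22, adjusted p = 0.179, and 0.0621 with the replicate block) and 0.38 in VHL-null cells (SE 0.22, adjusted p = 1). The interaction of NFIL3, -1.18, had an adjusted p of 1 without the block and 0.973 with it. CEBPG was null on the VHL-null arrays of replicate 1 at both times, and reached 119 at 18 h against 84 at 0 h in replicate 2. In VHL-restored cells CEBPG was 11 and 78 at 18 h against 4 and 28 at 0 h, groups that overlap.

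Over the earlier times, ATF3 was the member with the greatest change. Its intensity was 1223 at 1 h and 1347 at 4 h in VHL-null cells, and 846 and 1116 in VHL-restored cells. At 2 h it was 94 and at 6 h 83 in VHL-null cells, and 85 and 65 in VHL-restored cells. The high times are the arrays of set 2 and the low times those of set 1, so time and array set cannot be told apart in that zigzag. Against the 0 h array of the same set, ATF3 was 4.90-fold at 1 h and 5.22-fold at 4 h in VHL-null cells, and 4.56-fold and 6.00-fold in VHL-restored cells. At 2 h and 6 h the same ratios were 1.38 and 1.21 in VHL-null and 1.25 and 1.02 in VHL-restored cells.

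With genotype and state as terms over the 20 RCC4 arrays, ATF3 rose at 1 h by 2.74 on the log2 scale (SE 0.39, adjusted p = 0.00382), 1 of 5 members in a comparison that called 1.37% of genes. It rose at 4 h by 2.98 (SE 0.39, adjusted p = 0.00113), where 5.92% of genes were called. Kept within set 2, the ATF3 rises were 2.24 (adjusted p = 0.000349) and 2.49 (adjusted p = 8.39e-05), with 2.44% and 9.47% of genes called. At 2 h, with 0.0263% of genes called, and at 6 h, with 0% called and 254 genes at an unadjusted p under 0.05, none of the 5 members passed. Within set 1, where 0.0525% of genes were called at 2 h and 0% at 6 h (452 at an unadjusted p under 0.05), the ATF3 changes were 0.39 at 2 h (adjusted p = 0.49) and 0.15 at 6 h (adjusted p = 0.998). The difference between times in the 2 sets was not tested. Without centring the arrays ATF3 kept its direction at 1 h (adjusted p = 0.21) and at 4 h (3.12) and no longer passed at either time.

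CEBPB was also higher at 1 h and 4 h than at 0 h of its set, at lower size than ATF3. Its intensity was 618 at 1 h and 680 at 4 h in VHL-null cells, and 788 and 795 in VHL-restored cells, all in set 2. In set 1 it was 195 at 2 h and 228 at 6 h in VHL-null cells, and 283 and 289 in VHL-restored cells. Within that set the CEBPB log2 changes against 0 h were -0.27 at 2 h (adjusted p = 0.486) and -0.16 at 6 h (adjusted p = 0.954). Those of ATF3 were 0.39 and 0.15. CEBPB rose at 4 h by 0.73 on the log2 scale (SE 0.16, adjusted p = 0.0177), and within set 2 by 0.61 (adjusted p = 0.031). Its 4 h call was lost without centring (0.86), with quantile normalization (0.72) and with null entries as missing (0.61). At 1 h its change of 0.67 lay at the threshold, with adjusted p = 0.055 over all arrays, 0.0452 with the array set as a block (3.61% of genes called, 10.6% at 4 h) and 0.0711 within set 2.

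NFIL3 had 191 and 189 at 1 h and 4 h in VHL-null cells, and 203 and 226 in VHL-restored cells. The 2 h and 6 h values were 47 and 92 in VHL-null and 39 and 49 in VHL-restored cells. In the fit of all genes NFIL3 rose by 1.35 at 1 h (SE 0.27, adjusted p = 0.0216) and by 1.39 at 4 h (SE 0.27, adjusted p = 0.0105), and did not pass within set 2 (adjusted p = 0.112 and 0.0988). CEBPG was listed at 141 and 182 at 1 h and 4 h in VHL-null cells and at 126 and 146 in VHL-restored cells, and was null on all 4 arrays at 2 h and 6 h. Its 4 h change of 2.24 passed in the fit of all genes (SE 0.58, adjusted p = 0.0341) and within set 2, where it was 1.62 (adjusted p = 0.0258). At 1 h the CEBPG change of 2.00 did not pass in the fit of all genes (adjusted p = 0.0836). With the array set as a block it was 1.22 and passed (adjusted p = 0.049), and within set 2 it was 1.37 and did not (adjusted p = 0.0616).

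ATF4 and CEBPD passed at none of these times. ATF4 had 790 at 1 h and 747 at 4 h in VHL-null cells against 1098 at 0 h in the same set, and 860 and 831 in VHL-restored cells against 787 at 0 h. The genotypes thus lay on opposite sides of their 0 h arrays, with within-set log2 changes of -0.18 and -0.31 in VHL-null and 0.25 and 0.20 in VHL-restored cells, a difference that was not tested. Changes shared by both genotypes ran from -0.20 to 0.08 for ATF4 over the 4 times. For CEBPD they ran from -0.27 to -0.10 over all arrays, while within the array set they were 0.11 at 1 h, -0.48 at 2 h, 0.07 at 4 h and -0.43 at 6 h.

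**Figure D2:**
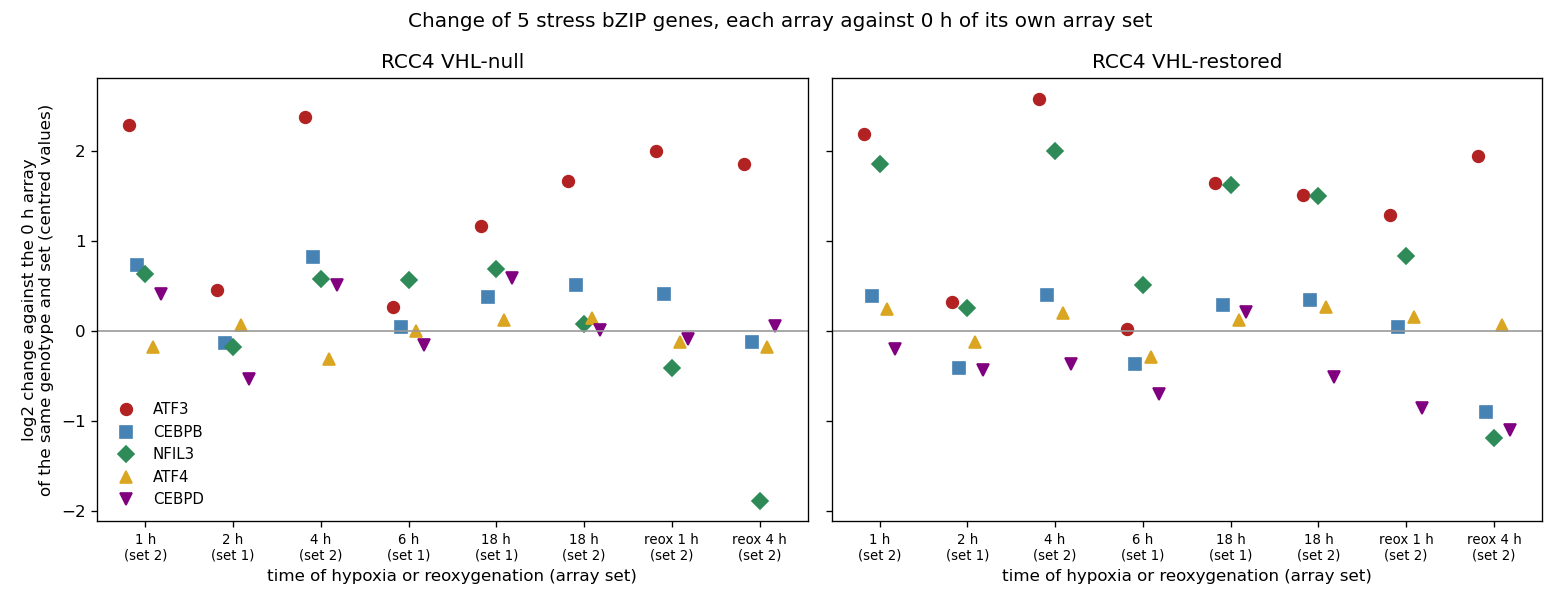
Log2 change of 5 members on each hypoxic or reoxygenated RCC4 array, against the 0 h array of the same genotype and array set, VHL-null in the left panel and VHL-restored in the right. Each symbol is 1 array, with no error bar because there is 1 array per point. ATF3 lies above 1.1 at 1 h, 4 h, 18 h and both reoxygenation times in each genotype, and below 0.5 at 2 h and 6 h.

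On reoxygenation the members parted. At 4 h after oxygen returned, CEBPB had 337 in VHL-null and 269 in VHL-restored cells, against 601 and 801 at 18 h of hypoxia in the same array set. NFIL3 had 20 and 7, against 142 and 163. ATF3 had 905 and 616, against 891 and 548, with neither genotype below its 18 h value.

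CEBPB fell by 0.78 on the log2 scale against 18 h (SE 0.16, adjusted p = 0.0332), the only 1 of 5 tested members called, in a comparison that called 0.801% of genes. Within set 2 CEBPB fell by 0.94 (adjusted p = 0.0177), with 1.17% of genes called, and with the array set as a block, where 2.63% were, it passed as well (adjusted p = 0.00208). NFIL3 fell by 2.41 in the fit of all genes (SE 0.27, adjusted p = 0.000292), while its change of -2.33 within set 2 did not pass (adjusted p = 0.0654). For ATF3 the change was 0.91 (SE 0.39, adjusted p = 0.289) over all arrays and 0.31 within set 2 (adjusted p = 0.453). CEBPD had a change of -0.80 (SE 0.35, adjusted p = 0.288), and of -0.27 within set 2. CEBPG changed by 1.04 in the fit of all genes (SE 0.58, adjusted p = 0.467) and by 0.09 within set 2. Against 0 h of its set, ATF3 was still 3.63-fold in VHL-null and 3.86-fold in VHL-restored cells at 4 h of reoxygenation, while CEBPB was 0.92-fold and 0.54-fold. The CEBPB call over all arrays was lost without centring (-0.72), with quantile normalization (-0.80), and without VHL-restored 0 h replicate 1 (-0.78), VHL-restored 18 h replicate 1 (-0.79) or VHL-null 18 h replicate 2 (-0.74).

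After 1 h of reoxygenation none of the 5 members passed, with 0% of genes called and 633 at an unadjusted p under 0.05. ATF3 had 1079 in VHL-null and 439 in VHL-restored cells, CEBPB had 534 and 605, and NFIL3 had 92 and 90. CEBPD had a log2 change of -0.75 against 18 h (SE 0.35, adjusted p = 0.583), and ATF3 one of 0.65 (SE 0.39, adjusted p = 0.585). Within set 2 these changes were -0.22 for CEBPD and 0.06 for ATF3, and the ATF3 change was 0.33 in VHL-null and -0.22 in VHL-restored cells. In the fit of all genes CEBPG changed by 1.23 (SE 0.58, adjusted p = 0.607) and NFIL3 by -0.66 (SE 0.27, adjusted p = 0.593). Within set 2 they changed by 0.28 and -0.58.

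Loss of VHL went with less CEBPB mRNA. At 0 h CEBPB was 215 and 450 in VHL-null cells against 389 and 653 in VHL-restored cells, and the 18 h arrays gave 292 and 601 against 467 and 801. In each replicate the VHL-null array was the lower, and CEBPB was lower in VHL-null cells in 9 of 10 pairs of arrays matched for time and set. The exception was 4 h of reoxygenation, with 337 against 269.

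Over the 8 states, CEBPB was lower in VHL-null cells by a log2 difference of -0.43 (SE 0.08, adjusted p = 0.00197), 1 of 5 members in a comparison that called 15.1% of genes. Without centring it was -0.36 and no longer passed. At 0 h the CEBPB difference of -0.72 was not called without the replicate block (adjusted p = 0.666, 0.118% of genes called) and was called with it (adjusted p = 0.000135, 7.51% called). At 18 h the difference of -0.59 behaved alike, with adjusted p = 1 without the block (0.0263% called) and 0.000873 with it (7.59% called). ATF3 was 0.31 higher in VHL-null cells over the 8 states (SE 0.20, adjusted p = 0.382), and passed with the array set as a block (adjusted p = 0.0277, 34.2% of genes called). That ATF3 difference was -0.01 within set 1 (adjusted p = 0.984) and 0.53 within set 2 (adjusted p = 0.00244). NFIL3 at 0 h was 55 and 146 in VHL-null cells against 31 and 50 in VHL-restored cells, a log2 difference of 0.89 in the fit of all genes that did not pass (adjusted p = 0.684, and 0.116 with the replicate block). ATF4, ATF5 and CEBPD differed by -0.09 to 0.01 over the 8 states and did not pass with or without the array set as a block. On the set 2 arrays alone 4 of the 5 tested members were called. CEBPD differed by set: its VHL-null minus VHL-restored pairs ran from 0.03 to 0.67 in set 1 and from -1.03 to 0.13 in set 2.

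The targets of ATF4 were followed through a list of 37 stress response genes, of which 29 were tested. At 4 h of hypoxia in RCC4, 27 of 29 had a positive change, against 40.6% of all tested genes, and the list median was 0.64, against -0.06 over all genes. Of the 29, 11 rose and 0 fell, where 5.92% of all genes were called. Those with the highest values, picked after they were seen, were STC2, a secreted stanniocalcin (1.48, adjusted p = 0.0137), HERPUD1, a factor of endoplasmic reticulum degradation (1.46, adjusted p = 0.00272), GDF15, a stress cytokine (1.20, adjusted p = 0.0109), TRIB3, a pseudokinase that binds ATF4 (1.19, adjusted p = 0.0327), and ASNS, asparagine synthetase (1.15, adjusted p = 0.0161). Within set 2, 13 of 29 rose, where 9.47% of genes were called, and 25 of 29 had a positive change, against 65.4% of all genes, with a median of 0.45 against 0.07. At 1 h, 7 of 29 rose and 0 fell, where 1.37% of genes were called, and within set 2 11 rose, where 2.44% were. At 2 h and 6 h 0 of 29 were called. The list medians were -0.06 at both times against 0.13 and 0.10 over all genes, and with the array set as a block they were 0.09 and 0.07 against 0.03 and 0.02.

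At 18 h, 27 of 29 targets had a positive change in VHL-null cells, against 58.7% of all genes, with a median of 0.26 against 0.02. In VHL-restored cells 23 of 29 were positive, against 65.4%, with a median of 0.34 against 0.05. Without the replicate block (0% and 0.0394% of genes called) 0 targets were called in VHL-null cells and only TRIB3 in VHL-restored cells (1.83, SE 0.17, adjusted p = 0.02). With the block, where 0.486% of genes were called in VHL-null and 6.58% in VHL-restored cells, 3 rose in VHL-null cells, GDF15 (1.03, adjusted p = 0.00741), DDIT4 (0.62, adjusted p = 0.0426) and TRIB3 (0.54, adjusted p = 0.0338). In VHL-restored cells 11 rose with the block, led by TRIB3 (adjusted p = 9.74e-09), STC2 (1.64, adjusted p = 2.22e-06), DDIT4, an inhibitor of mTOR signalling that HIF also activates (1.31, adjusted p = 4.41e-06), and HERPUD1 (0.97, adjusted p = 1.9e-05). TRIB3 was already higher in VHL-null than in VHL-restored cells at 0 h (1.51, adjusted p = 0.0346), and its VHL by hypoxia interaction was -1.29 with the block (adjusted p = 0.000208).

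**Figure D3:**
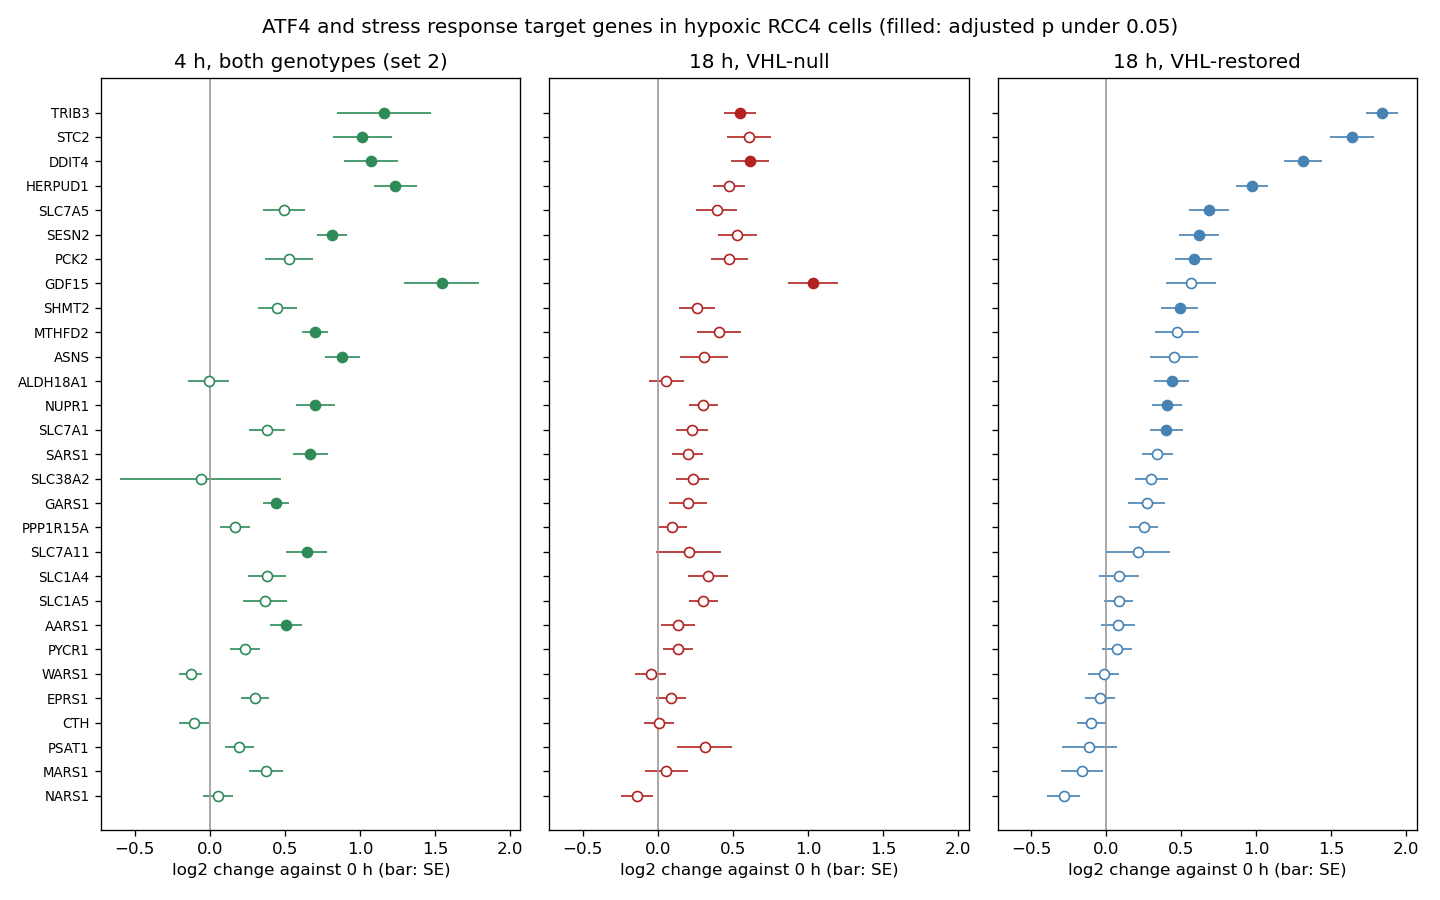
Log2 change against 0 h of the 29 tested ATF4 and stress response targets in RCC4 cells, at 4 h over both genotypes within array set 2 (left), and at 18 h in VHL-null (middle) and VHL-restored cells (right) with the replicate number as a block. Points are fitted changes, bars are SE, and filled points have an adjusted p under 0.05. The filled points number 13, 3 and 11, and all lie to the right of 0.

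After 4 h of reoxygenation 3 of the 29 targets fell against 18 h and 0 rose, where 0.801% of genes were called. SLC38A2, an amino acid transporter, changed by -2.33 (adjusted p = 0.00788), DDIT4 by -1.09 (adjusted p = 0.012) and SESN2, a stress-induced regulator of mTOR, by -0.87 (adjusted p = 0.0179). Within set 2 SLC38A2 was not called (adjusted p = 0.0636). The list as a whole did not fall: 21 of 29 had a positive change, against 39.6% of all genes. Its median was 0.28 against -0.06. Within set 2, 20 of 29 were positive, against 67.1%, with a median of 0.10 against 0.05. With the array set as a block, 1 target rose and 3 fell.

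Of 9 listed DDIT3 targets 5 were tested, and TRIB3, PPP1R15A and DNAJC3 also stand in other lists. At 4 h, where 5.92% of all genes were called, 3 of the 5 rose: DNAJC3, an inhibitor of eIF2alpha kinases (1.30, adjusted p = 0.0157), TRIB3, and BBC3, the cell death gene PUMA (0.72, adjusted p = 0.00414). The eIF2 list, with kinases, phosphatase subunits and eIF2 and eIF2B subunits, had 7 of 16 genes tested, and 2 rose at 4 h, DNAJC3 and EIF2B2 (0.39, adjusted p = 0.0385). At 18 h 0 of the 7 were called in either genotype with or without the block.

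Among 36 other bZIP factors and dimer partners 19 were tested. At 4 h (5.92% of genes called) 4 of them rose and 0 fell: XBP1, the factor spliced by IRE1 (1.18, adjusted p = 0.00981), JUNB (1.06, adjusted p = 0.0187), JUN (0.59, adjusted p = 0.019) and TEF, a PAR bZIP activator that shares its DNA site with NFIL3 (0.58, adjusted p = 0.0116). Within set 2 at 4 h, where 9.47% of genes were called, 7 of the 19 rose and 1 fell. At 18 h none was called without the block. With it JUNB rose in VHL-null cells (0.67, adjusted p = 0.00316), where 0.486% of genes were called. In VHL-restored cells, where 6.58% were, 4 rose with the block and 1 fell. Those that rose were XBP1 (0.60, adjusted p = 0.0038), JUNB (0.48, adjusted p = 0.00659), TEF (0.47, adjusted p = 0.00887) and JUN (0.39, adjusted p = 0.0397). TEF fell at 4 h of reoxygenation (-0.86, adjusted p = 0.00199; within set 2 -0.82, adjusted p = 0.0128).

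Of the acute phase and inflammatory genes known as C/EBP targets 11 were tested from 22 listed. At 4 h, where 5.92% of genes were called, 0 of 11 rose and only LBP fell (-0.50, adjusted p = 0.0183). With the replicate block CXCL8 (0.88, adjusted p = 0.00378) and SAA1 (0.46, adjusted p = 0.00809) rose at 18 h in VHL-restored cells (6.58% of genes called), and 0 of 11 were called in VHL-null cells (0.486% called). Over the 8 states, where 15.1% of genes were called, 2 of the 11 were lower in VHL-null cells and 0 higher, a share near that of all genes. They were complement C3 (-2.67, adjusted p = 1.04e-05) and the mitochondrial superoxide dismutase SOD2 (-0.84, adjusted p = 0.000115). With the array set as a block, where 34.2% of genes were called, 3 of the 11 were higher and 3 lower.

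In H1299 and HCT116 cells none of the 5 tested members was called at 24 h or 12 h. ATF3 in HCT116 p53-null cells was 240 at 0 h, 257 at 12 h and 268 at 24 h, and in p53-wildtype cells 351, 369 and 277. In H1299 p53-null cells ATF3 was 99 at 24 h against 61 at 0 h, and the arrays labelled H1299 p53-wildtype gave 58 at 24 h and 91 at 0 h. Every ATF3 value of HCT116 lay above every one of H1299.

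**Figure D4:**
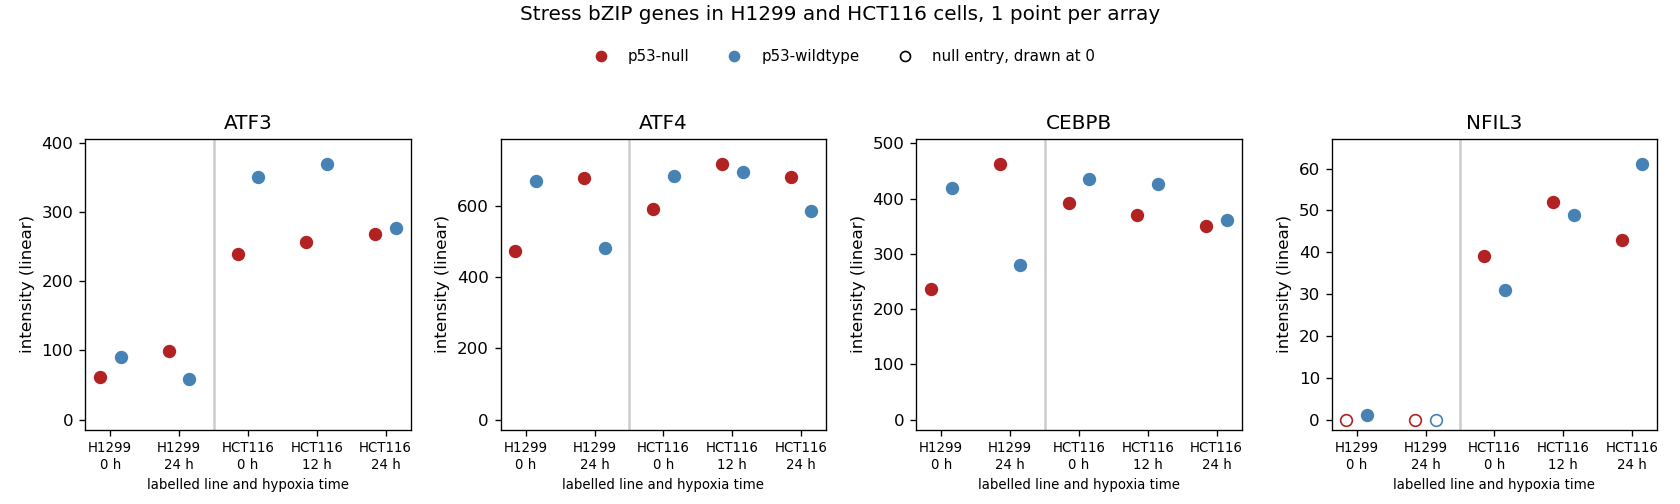
Linear intensity of ATF3, ATF4, CEBPB and NFIL3 on the 4 H1299 and 6 HCT116 arrays by labelled line and hours of hypoxia, p53-null in red and p53-wildtype in blue. Each point is 1 array and open points are null entries drawn at 0. On the H1299 arrays the p53-wildtype points of ATF3, ATF4 and CEBPB are high at 0 h and low at 24 h, the reverse of the p53-null points.

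CEBPB in H1299 p53-null cells was 462 at 24 h against 237 at 0 h, a log2 change of 0.93, and the arrays labelled p53-wildtype gave 280 at 24 h and 420 at 0 h, a change of -0.56. In HCT116 CEBPB was 350 at 24 h against 392 at 0 h in p53-null cells, and 362 against 435 in p53-wildtype cells. ATF4 was 679 at 24 h against 475 at 0 h in H1299 p53-null cells and 482 against 669 under the p53-wildtype labels, and in HCT116 it was 682 against 591 in p53-null and 585 against 684 in p53-wildtype cells. NFIL3 was null on 3 of the 4 H1299 arrays and 1 on the other, and 31 to 61 in HCT116.

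Across both lines and genotypes 24 h of hypoxia gave log2 changes of -0.02 to 0.10 in the 5 members, and none was called, with 0% of genes called and 427 at an unadjusted p under 0.05. This pool holds the H1299 p53-wildtype pair that goes against its labels, and without that pair 0 members and 7 of all tested genes were called. At 12 h in HCT116 the members changed by -0.03 to 0.17 and none was called, where 0.735% of genes were. Of the 29 tested ATF4 targets 2 rose at 12 h, HERPUD1 (1.21, adjusted p = 0.0174) and STC2 (0.84, adjusted p = 0.019). In all, 18 of 29 were positive at 12 h, against 61.1% of all genes, with a median of 0.09 against 0.04. In the 24 h pool of both lines, which holds the doubtful H1299 pair, 9 of 29 were positive, against 59.6%. The list median there was -0.12 against 0.02, and 0 targets were called. Loss of p53 gave member differences of -0.18 to 0.01, with 0% of genes called and 526 at an unadjusted p under 0.05, and in HCT116 alone 0 members and 2 genes were called. In the p53 by hypoxia test ATF3 had 0.78 (SE 0.21), ATF4 0.68 (SE 0.18) and CEBPB 0.78 (SE 0.41), each with an adjusted p of 0.854, with 0% of genes called and 309 at an unadjusted p under 0.05. Without H1299 these values were 0.43, 0.38 and 0.06 in HCT116 alone, where 1 array per group allows no test. The line by hypoxia differences were -0.02 to 0.38 with 0% of genes called and 435 at an unadjusted p under 0.05.

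Over the 6 combinations of line and genotype, late hypoxia (18 h or 24 h) gave ATF3 a log2 change of 0.48 (SE 0.30, adjusted p = 0.461) and the other 4 tested members 0.06 to 0.12, with 0% of genes called and 925 at an unadjusted p under 0.05. Of the ATF4 targets 15 of 29 were positive, with a median of 0.01 against 0.03 over all genes. These values include the H1299 p53-wildtype pair, and without it 0 members and 5 of all tested genes were called. The largest statistics in the list belonged to GDF15 (0.83, adjusted p = 0.4), WARS1 (-0.10, adjusted p = 0.401), ALDH18A1 (0.43, adjusted p = 0.413) and NARS1 (-0.29, adjusted p = 0.413).

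In untreated cells the lines differed in ATF3. As log2 values relative to the array median, ATF3 averaged -0.49 ± 0.15 in RCC4, -0.69 ± 0.34 in H1299 and 1.09 ± 0.35 in HCT116 (SD over 2 genotypes). RCC4 was lower than HCT116 by a log2 difference of -1.58 (SE 0.23, adjusted p = 0.00394), 1 of 2 members called where 60.3% of genes were. H1299 was lower than HCT116 by -1.78 (SE 0.23, adjusted p = 0.0168), where 6.2% of genes were called. RCC4 and H1299 had a difference of 0.20 (adjusted p = 0.5). These RCC4 values average both array sets, while H1299 and HCT116 lie in set 1 alone. On the set 1 arrays at 0 h ATF3 was -0.98 in VHL-null and -1 in VHL-restored RCC4 cells, both below H1299. H1299 had -0.93 and -0.45 and HCT116 0.84 and 1.34, p53-null first. ATF4 and CEBPB ran from RCC4, the lowest, over H1299 to HCT116, with neighbours within the spread: ATF4 averaged 1.87 ± 0.05, 1.99 ± 0.34 and 2.18 ± 0.13, and CEBPB 1.04 ± 0.51, 1.18 ± 0.56 and 1.57 ± 0.09, in RCC4, H1299 and HCT116. On the p53-null array alone H1299 had 1.74 for ATF4 and 0.79 for CEBPB, so the order of RCC4 and H1299 turns without the array labelled p53-wildtype. Without that array the ATF3 difference between H1299 and HCT116 was -2.02 (adjusted p = 0.0344). CEBPD averaged -0.01 ± 0.32, -0.34 ± 0.18 and -0.09 ± 0.10 and was called in none of the 3 comparisons of lines. NFIL3 was higher in RCC4 than in H1299 by 1.77 in the fit of all genes (SE 0.31, adjusted p = 0.00988). In the same fit NFIL3 in H1299 minus HCT116 was -1.65 (SE 0.31, adjusted p = 0.0926). CEBPG in RCC4 minus HCT116 was -0.87 (SE 0.53, adjusted p = 0.219).

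ATF5, a factor with a translational control like that of ATF4, has 2 probe sets that disagree in brightness. The brighter one lay between 853 and 1051 on all 30 arrays, with a median of 979.5, and the dimmer one between 77 and 245. As the brighter one hardly moved while array medians differed by 0.903 on the log2 scale, its centred values follow the array medians. ATF5 was called lower in RCC4 than in H1299 (-0.37, adjusted p = 0.0146, where 55.4% of genes were called) and than in HCT116 (-0.34, adjusted p = 0.0171), where the medians over all genes were -0.20 and -0.21, and without centring both differences turn positive, 0.08 and 0.14. Without the array labelled H1299 p53-wildtype the ATF5 difference from H1299 was -0.30 and was not called (adjusted p = 0.0554). The RCC4 values in these comparisons average both array sets, while H1299 and HCT116 lie in set 1 alone. On the set 1 arrays at 0 h ATF5 was 2.76 in VHL-null and 2.62 in VHL-restored RCC4 cells. H1299 had 2.64 and 2.79 and HCT116 2.64 and 2.73, p53-null first. CEBPD lay between 90 and 275 over all arrays and was called in no comparison of the main or the blocked fits.

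Within each line and genotype, the members' courses were compared over all 30 arrays as deviations from the mean of their background. The arrays share their set, so each correlation is given as a description, first as it is and then with the set means removed as well. ATF3 and CEBPG had r = 0.933 and 0.777, CEBPB and NFIL3 0.665 and 0.753, and ATF3 and CEBPB 0.648 and 0.458. ATF3 and ATF5 had -0.726 and 0.5, a sign that turned with the set. Of all tested genes, those most like CEBPB were SESN2 (0.925), INO80 (0.880) and MTRFR (0.860), and SESN2 and INO80 stayed among the nearest 3 with set means removed (0.909 and 0.855), with TEF (0.879) between them. Nearest to ATF3 were STAMBP (0.958), TNFAIP3 (0.947) and PANK2 (0.937), of which STAMBP stayed (0.883). Nearest to ATF4 were PDIA5 (0.691), SESN2 (0.690) and PCK2 (0.687), none of which stayed among its nearest 3. For ATF5 the nearest were SNX8 (0.988), COL2A1 (0.984) and OFD1 (0.983), and for CEBPD IRF9 (0.802), ZNF581 (0.773) and ZBTB22 (0.747), and none of these stayed.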

How the data were processed

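The deposited values are array intensities on a linear scale, in whole numbers. How the authors scaled them is not given in the sources used here, nor is the meaning of a null entry, which was taken as 0. Values were used as log2(value + 16), centred on each array's median, so fold changes of dim genes are understated. Of 17478 annotated probe sets 16905 carried 1 symbol, 573 carried several and were not used, and the brightest per gene gave 12690 genes. The upper 60% by mean, 7614, were tested.

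All tests are two-sided limma fits (version 3.58.1, under R 4.3.3), adjusted by Benjamini-Hochberg across every gene tested, with 0.05 as the threshold, and the fits were tested on simulated data. A p-value covers the spread between these arrays alone, which may be technical. The 8 replicated RCC4 arrays were fitted by group, all 20 by genotype and state, and H1299 and HCT116 by line, genotype and time. Replicate differences correlated at 0.794 to 0.916 in the 6 pairings of groups, and on that basis the replicate number was used as a block. The replicate number equals the array set, so this correlation cannot tell a pairing of samples from a shift shared by the set. Values with the block stand beside results whose call it changes.

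The members and the 5 gene lists were chosen with earlier results of these data known. The 5 tested members are described where they pass or change by at least 0.5 on the log2 scale. CEBPG and NFIL3 are described by intensities and by only some of their fits. From each list up to 4 genes with the largest statistics are named at 18 h, for VHL loss at 0 h and for late hypoxia. In the other comparisons list genes were named after their values were seen. Alternatives were other pseudocounts (4 and 64), no centring, quantile normalization, null as missing, all genes, the mean of a gene's probe sets, blocks and leaving out arrays. Promoters were searched with Python 3.11.15. Arrays have no read depth, and their number limits the precision.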

Additional observations from a re-analysis of the deposited data

Results flagged for a closer look

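ATF3 and ATF4 moved one way in all p53-null cells and the other way under all p53-wildtype labels at 24 h of hypoxia. The ATF3 change was 0.59 in H1299 and 0.14 in HCT116 p53-null cells, against -0.54 and -0.29 under the p53-wildtype labels, a mean difference of 0.7824. The ATF4 change was 0.52 and 0.19, against -0.46 and -0.19, a mean difference of 0.6811. Neither difference passed limma's interaction test (adjusted p = 0.854 for each). The H1299 p53-wildtype pair enters both values and goes against its labels: over 7614 genes the array labelled p53-wildtype 24 h correlated at 0.981 with p53-null 0 h and the one labelled p53-wildtype 0 h at 0.987 with p53-null 24 h, above the 0.966 between the p53-null arrays. At 12 h in HCT116 the changes were 0.10 in p53-null and 0.10 in p53-wildtype cells for ATF3, and 0.28 and 0.05 for ATF4, all positive. In HCT116 alone the differences were 0.43 for ATF3 and 0.38 for ATF4, with no test possible.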

How the results depend on the processing

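Of the named member results under alternatives, 281 kept their direction and their side of the threshold, 11 passed only under the alternative, 19 no longer passed and 4 changed direction. With the replicate block 1 member was called, against 0 without it, at 18 h in VHL-null, 18 h in VHL-restored, VHL loss at 0 h and VHL loss at 18 h. In that order all genes called went to 37, 501, 572 and 578, against 0, 3, 9 and 2, and for the interaction to 43 against 0. The block changed no other member's call among these comparisons. The array set as a block gave 2 members at 1 h (1 without it) and 2 for VHL over 8 states (1 without it). Set 2 alone gave 4 for VHL over 8 states, where the alternatives called 226 to 3478 of all tested genes. Without centring 0 members were called at 1 h, 4 h, 4 h of reoxygenation and VHL over 8 states. Quantile normalization gave 1 at 4 h (against 2), 0 at 4 h of reoxygenation (against 1), and 0 and 1 for RCC4 against H1299 and HCT116 (against 1 and 2). Null as missing gave 1 at 4 h and 1 for RCC4 against HCT116, and the mean of probe sets gave 2 at 1 h, 2 for VHL over 8 states, and 0 and 1 for RCC4 against H1299 and HCT116.

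Leaving out 1 replicate gave 1 to 2 members at 1 h (CEBPB joined without VHL-null 18 h replicate 1, VHL-restored 0 h replicate 2 or VHL-restored 18 h replicate 2) and 0 to 1 at 4 h of reoxygenation, where the CEBPB call was lost without VHL-restored 0 h replicate 1 (change -0.78), VHL-restored 18 h replicate 1 (-0.79) or VHL-null 18 h replicate 2 (-0.74). Without the H1299 p53-wildtype arrays 0 members separated RCC4 from H1299 (against 1), and with RCC4 replicate 1 alone 1 separated RCC4 from HCT116 (against 2). The changes of direction were ATF3 for VHL over 8 states in set 1 (-0.006163), ATF5 without centring for RCC4 against H1299 (0.08319) and HCT116 (0.1353), and ATF5 against HCT116 with RCC4 replicate 1 alone (0.0007986). The cause was not tested.

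Counts of all genes called over the alternatives ranged from 0 to 321 at 1 h (main 104), 0 to 12 at 2 h (2), 12 to 903 at 4 h (451), 0 to 7 at 1 h of reoxygenation (0), 4 to 252 at 4 h (61), 226 to 3478 for VHL over 8 states (1151), 0 to 7 at 24 h (0), 0 to 103 at 12 h (56), 0 to 2 for p53 (0), 0 to 5 for late hypoxia (0), 2399 to 6951 for RCC4 against H1299 (4217), 2731 to 7502 against HCT116 (4589) and 280 to 551 for H1299 against HCT116 (472).

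Most groups are single arrays, so tests at 1 h, 2 h, 4 h, 6 h and in H1299 and HCT116 rest on genotypes, times or lines as replicates. The 1 h and 4 h arrays lie in set 2 and the 2 h and 6 h arrays in set 1. Array set and time cannot be told apart between these times. Dim members have many null entries.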
